A study of Arabidopsis thaliana with 12 samples.

Results

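The difference between med25-1 and wild-type Arabidopsis thaliana rosettes that had not been exposed to low oxygen was examined across all genes. It rested on 6 of the 12 RNA-seq libraries of the series, the 3 libraries labelled med25-1 control and the 3 labelled wild-type control. All plants were grown from seed on plates of half-strength medium with 0.5% sucrose under 16 h of light (days of 21 °C, nights of 18 °C) and were taken at 3 weeks. Seeds were first stratified for 48 h at 4 °C, and the light level was 150 µmol per square metre per second. The other 6 libraries came from plants of the same genotypes held at 1% oxygen for 3 h, here called hypoxia, and serve to show whether the difference between genotypes recurred in other plants, and to share 1 estimate of spread. The series' design text gives 3 biological replicates per group. The labels name neither the accession of the wild type nor the position of the med25-1 lesion, so that med25-1 is described here as a single mutant line.

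MED25 belongs to Mediator, which passes signals from DNA-bound transcription factors to RNA polymerase II. In Arabidopsis it binds activators of the jasmonate and ethylene pathways, among them MYC2, ERF1 and ORA59, and it is also known as PFT1, a regulator of flowering time and light responses. Jasmonate is the hormone of defence against insects and necrotrophic fungi, whereas salicylate, made from isochorismate that the chloroplast supplies, drives defence against biotrophic pathogens through NPR1 and induces the PR genes.

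The control libraries held 11360247 to 20501572 reads assigned to genes, and no library stood apart from its group. Correlations of log2 CPM (counts scaled to library size, per 1e6 reads) across genes were 0.970 to 0.991 within a genotype and 0.908 to 0.940 between genotypes. The first principal component carried 73.6% of the variance and separated the genotypes. MED25 itself (AT1G25540) stood at 34.6, 32.7 and 34.9 CPM in wild type against 22.8, 20.7 and 31.2 CPM in med25-1. The mutant libraries all lay below the wild-type ones, but the difference of -0.45 ± 0.20 (SE) on the log2 scale was not called (edgeR adjusted p = 0.133). Intron reads made up 0.858%, 1.88% and 0.457% of MED25 reads in wild type and 10.4%, 7.89% and 8.03% in med25-1. Over all genes the intron share was 1.84% ± 0.0557 (SD, n = 3) in med25-1 and 1.78% ± 0.169 in wild type, a difference of 0.0546 percentage points (two-sided exact permutation test of 20 arrangements, p = 0.8, with 0.1 the smallest p possible). Of 34 tested Mediator genes, MED25 included, 0 were called by edgeR (4 at an unadjusted p under 0.05, 1 called by DESeq2 and 6 by limma's voom), with a median log2 fold change of -0.00.

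The rosette label was examined against markers. The summed level of 6 leaf markers was 58768 to 62849 CPM in wild type and 47099 to 52640 CPM in med25-1, with 0 of the 6 called by edgeR, 2 at an unadjusted p under 0.05 and 2 called by DESeq2. Of 6 root markers 4 had no read in any control library, and the sums were 0.743 to 2.92 CPM in wild type and 0.0680 to 0.300 CPM in med25-1. Flower markers summed to 1.31 to 1.65 CPM in wild type and 0.612 to 0.951 CPM in med25-1, and 2 of 3 seed markers were unread. Among markers of single leaf cell types, the guard-cell factor MYB60 (AT1G08810) stood at 14.2, 20.14 and 16.4 CPM in wild type against 8.21, 7.20 and 6.95 CPM in med25-1. MYB60 fell by 1.18 ± 0.22 on the log2 scale (edgeR adjusted p = 0.00499). KAT1, the other guard-cell marker examined, was not called. Markers of guard, companion and trichome cells summed to 121 to 159 CPM in wild type and 187 to 215 CPM in med25-1. The sum joins unlike directions, as 1 of the 4 was called higher and 2 lower, with a median log2 fold change of -0.77. The trichome factor GL2 (AT1G79840) fell by 1.398 ± 0.40, but was not called without wild-type control replicate 2 or 3 or any 1 med25-1 control replicate. The companion-cell sucrose carrier SUC2 (AT1G22710) rose by 0.84 ± 0.23, but was not called without any 1 wild-type control replicate or without med25-1 control replicate 1 or 3. In such bulk samples fewer cells of a type and less RNA per cell cannot be told apart, and the part of these shifts in the results that follow was not tested.

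Genes were called changed where the Benjamini-Hochberg adjusted p of edgeR's quasi-likelihood test lay under 0.05. Of 18212 tested genes 3115 were called, which is 17.1%, and the calls split into 1635 genes higher in med25-1 (8.98%) and 1480 lower (8.13%). The rises were the larger changes. A fold of at least 16 was reached by 244 genes that rose and 34 that fell, and a fold of at least 64 by 105 and 15. The median log2 fold change was 1.38 over the genes called higher, -0.98 over those called lower and -0.02 over all tested genes. The 3 libraries of one genotype all lay outside the range of the other for 47.6% of tested genes. The count of calls depended on single libraries: it was 1285 without wild-type control replicate 3, 1554 without replicate 2 and 1990 without replicate 1 of that group. It was 1861 and 1838 without med25-1 control replicates 2 and 3, and 5027 without med25-1 hypoxia replicate 3. That hypoxia library enters the contrast only through the shared gene filter, scaling and estimate of spread. Without that last library the jasmonate, indole, heat shock and abscisic acid lists described further on counted 7, 8, 6 and 10 genes higher, against 4, 4, 3 and 5.

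**Figure D1:**
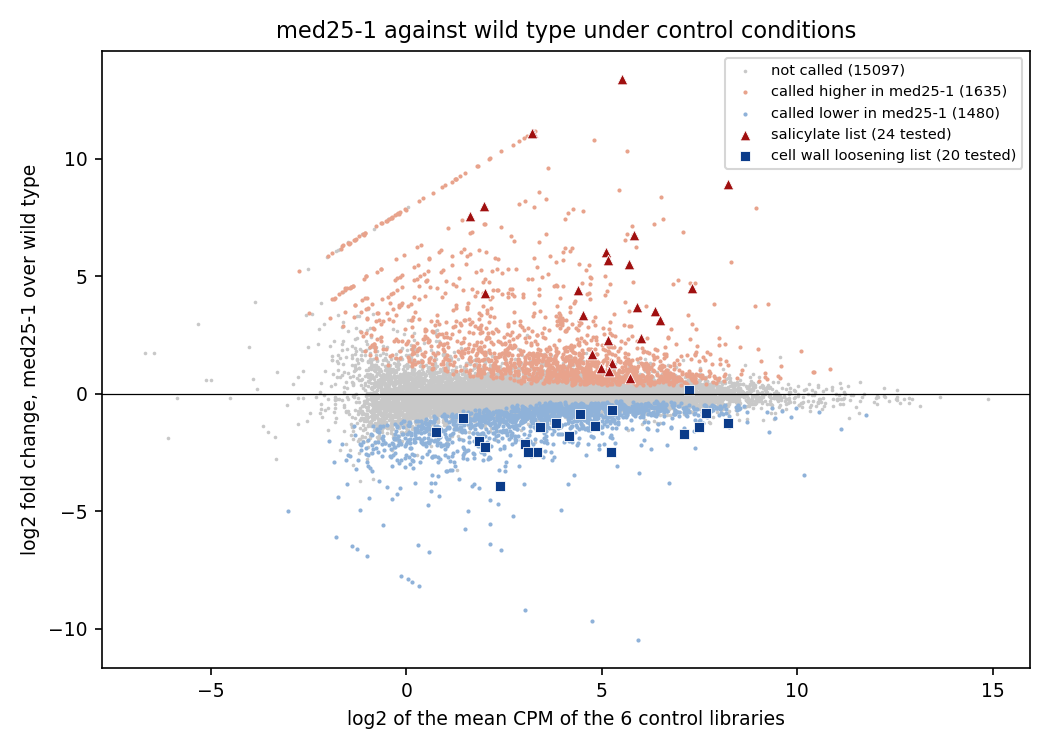
Log2 fold change of med25-1 over wild type under control conditions against mean level (log2 CPM), 1 point per tested gene, with called genes in colour. The triangles of the salicylate list lie at or above 0.67 and nearly all squares of the cell wall loosening list lie below 0.

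Genes of salicylate synthesis and signalling were higher in med25-1. Of the 24 on the list, all of them tested, 23 rose and 0 fell (95.8% called, against 17.1% of all tested genes). The libraries of the 2 genotypes did not overlap for any of the 24, and for 47.6% of all tested genes they did not either. The median log2 fold change of the list was 4.34, against -0.02 over all tested genes. This median was the same with genes unread in wild type set at their lower bounds. WRKY18 (AT4G31800) was the one not called, at 1.08 ± 0.42 (edgeR adjusted p = 0.101). The number that rose was 19 to 24 when any 1 library was left out, and the median was 3.66 without med25-1 control replicate 2.

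Synthesis genes came first. ICS1 (AT1G74710), isochorismate synthase, stood at 10.3, 7.97 and 8.03 CPM in wild type against 72.5, 224 and 38.6 CPM in med25-1. It rose by 3.67 ± 0.69 on the log2 scale (edgeR adjusted p = 0.00467), and by 2.66 without med25-1 control replicate 2. EDS5 (AT4G39030), which exports isochorismate from the chloroplast, rose by 3.35 ± 0.73, or 2.08 without that replicate. PBS3 (AT5G13320), which joins isochorismate to glutamate, stood at 1.34, 0.963 and 0.797 CPM in wild type against 39.2, 145 and 19.2 CPM in med25-1. It rose by 6.04 ± 0.92 (edgeR adjusted p = 0.00131), or 4.83 without med25-1 control replicate 2. In all 3 genes every mutant library lay above every wild-type library and replicate 2 was the highest.

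The activators of ICS1 rose with it. SARD1 (AT1G73805), a calmodulin-binding-like transcription factor, stood at 2.08, 2.01 and 2.44 CPM in wild type against 74.4, 176 and 51.2 CPM in med25-1. SARD1 rose by 5.51 ± 0.61 (edgeR adjusted p = 0.000162), or 4.83 without med25-1 control replicate 2. Its partner CBP60G (AT5G26920) had 21.0, 20.8 and 19.9 CPM in wild type and 85.8, 121 and 113 CPM in med25-1, a rise of 2.38 ± 0.34 (edgeR adjusted p = 0.000853). The lipase-like immune regulators PAD4 (AT3G52430) and EDS1 (AT3G48090) rose by 3.53 ± 0.52 and 2.301 ± 0.45. Without med25-1 control replicate 2 these were 2.88 and 1.66. SAG101 (AT5G14930), another member of their family, rose by 0.94 ± 0.28, a call lost with the replicate block and without any 1 of the 6 control libraries or wild-type hypoxia replicate 2 or 3.

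Salicylate receptors changed less. NPR4 (AT4G19660) stood at 13.7, 13.7 and 11.1 CPM in wild type against 35.2, 55.4 and 31.5 CPM in med25-1, a rise of 1.67 ± 0.25 (edgeR adjusted p = 0.00117). NPR3 (AT5G45110) rose by 1.32 ± 0.35 and NPR1 (AT1G64280), the coactivator, by 0.67 ± 0.20. Both calls were lost without any 1 wild-type control replicate or without med25-1 control replicate 2, and that of NPR1 also without med25-1 control replicate 3 or wild-type hypoxia replicate 3.

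The PR genes are the pathway's usual readout. PR1 (AT2G14610), whose secreted protein is the common marker of salicylate signalling, had 0 reads in all 3 wild-type control libraries and 140, 80.7 and 54.4 CPM in med25-1. With a floor of 3 counts over the wild-type group this was at least 1317-fold higher (edgeR adjusted p = 0.00132). PR2 (AT3G57260), a beta-1,3-glucanase, had 1.26, 1.401 and 1.12 CPM in wild type and 296, 299 and 1207 CPM in med25-1, a log2 rise of 8.90 ± 0.92 (edgeR adjusted p = 0.00011), or 7.90 without med25-1 control replicate 3. PR5 (AT1G75040), a thaumatin-like protein, had 17.39, 16.9 and 20.09 CPM in wild type and 85.7, 145 and 250.4 CPM in med25-1, a rise of 3.14 ± 0.56. Every mutant library lay above every wild-type one, but the library with the most PR2 and PR5, replicate 3, was not the one with the most ICS1. Per length, the mean level of PR2 in med25-1 was 378 RPKM (reads scaled to gene length and library size), above the 96.8 RPKM of PR1 and the 137 RPKM of PR5.

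The WRKY factors and co-regulators of the list followed. WRKY70 (AT3G56400), a factor at the crossing of salicylate and jasmonate signalling, stood at 14.6, 13.7 and 11.4 CPM in wild type against 237, 511 and 153 CPM in med25-1. It rose by 4.51 ± 0.51 (edgeR adjusted p = 0.000188), or 3.88 without med25-1 control replicate 2. WRKY54 (AT2G40750), its close relative, rose by 4.41 ± 0.64, or 3.56 without that library. WRKY38 (AT5G22570) had 1 read over the wild-type group, and the ratio of med25-1 to wild type was 307 (95% counting interval 54.8 to 12178), or 107 without med25-1 control replicate 2. Without wild-type control replicate 3, which held the single read, it was at least 58.4-fold higher. GRX480 (AT1G28480), a glutaredoxin that binds TGA factors, rose by 4.28 ± 0.71 and PNP-A (AT2G18660), a natriuretic-peptide-like protein, by 5.68 ± 0.71. NUDT6 (AT2G04450), a nudix hydrolase, stood at 1.04, 1.05 and 1.01 CPM in wild type against 79.7, 229 and 27.1 CPM in med25-1, a rise of 6.75 ± 0.93, or 5.68 without med25-1 control replicate 2.

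ALD1 (AT2G13810) and FMO1 (AT1G19250), the first and the last enzyme on the way from lysine to N-hydroxypipecolate, the mobile signal of systemic acquired resistance, were unread in wild type. ALD1 had 16.3, 33.6 and 5.95 CPM in med25-1 and was at least 251-fold higher (edgeR adjusted p = 0.00658). FMO1 had 13.6, 40.4 and 2.65 CPM and was at least 248-fold higher (edgeR adjusted p = 0.0104). Without med25-1 control replicate 2 the bounds were 157-fold and 113-fold.

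Across the list the mutant libraries differed in the same order. Replicate 2 was the highest med25-1 library for 21 of the 24 genes and replicate 3 the lowest for 19. Over all 1635 genes called higher, replicate 2 was the highest for 53.8%, replicate 3 for 37.5% and replicate 1 for 8.75%. The 2 list genes highest in replicate 3 were PR2 and PR5.

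**Figure D2:**
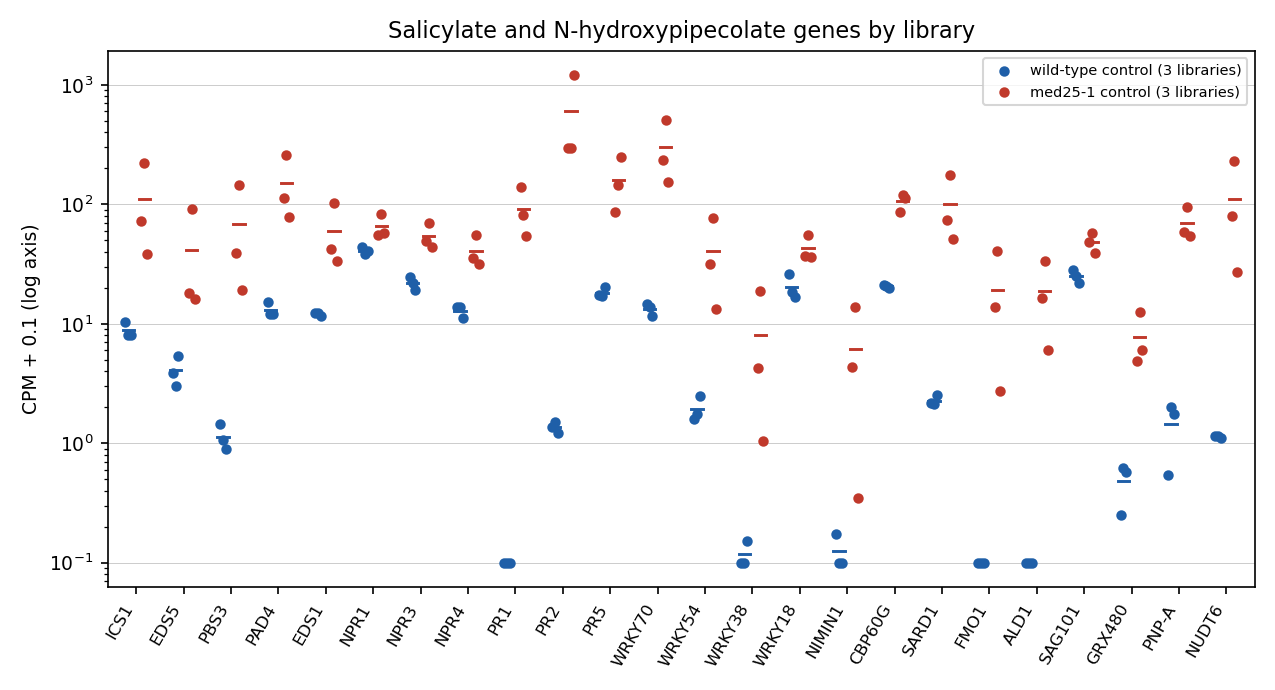
CPM plus 0.1 (log axis) of the 24 salicylate and N-hydroxypipecolate genes in the 3 wild-type control libraries (blue) and the 3 med25-1 control libraries (red), with a bar at each mean. No gene has overlapping groups, and PR1, ALD1 and FMO1 sit at the floor in wild type, where they had 0 reads.

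Promoter letters are shown for SARD1 and WRKY70 because both hold more than 1 copy of the letters that TGA factors, the DNA-binding partners of NPR1, recognise. Each run covers 250 bases before to 50 bases after the annotated gene start, read 5′ to 3′ on the gene's strand from RefSeq's TAIR10.1 assembly, and capitals mark TGACG or its reverse complement CGTCA. The SARD1 window (chr1:27749199-27749498, minus strand) holds 3 matches, of which 2 overlap, and the WRKY70 window (chr3:20910574-20910873, minus strand) holds 2.
SARD1: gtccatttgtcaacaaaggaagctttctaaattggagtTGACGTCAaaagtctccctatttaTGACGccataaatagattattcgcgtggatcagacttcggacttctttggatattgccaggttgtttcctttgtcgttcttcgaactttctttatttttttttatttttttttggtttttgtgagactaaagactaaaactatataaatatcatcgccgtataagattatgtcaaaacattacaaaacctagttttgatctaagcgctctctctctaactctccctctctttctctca
WRKY70: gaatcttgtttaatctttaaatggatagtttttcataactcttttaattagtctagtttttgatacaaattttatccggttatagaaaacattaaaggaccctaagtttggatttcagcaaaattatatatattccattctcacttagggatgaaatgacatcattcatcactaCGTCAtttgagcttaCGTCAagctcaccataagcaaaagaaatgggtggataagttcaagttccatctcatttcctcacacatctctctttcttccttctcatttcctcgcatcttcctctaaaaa
TGACG on either strand was present in 29.2% of the 24 salicylate promoters, in 29.6% of 1592 promoters of genes called higher, in 23.3% of 1463 called lower and in 23.8% of all 17857 promoters of tested protein-coding genes. These shares and those given further on are descriptions of letters and were not tested.

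Receptors of the immune system also rose. Of 19 tested genes on a list of cell-surface and intracellular immune receptors, 12 rose and 0 fell, with a median log2 fold change of 1.12. The share called was 63.2%, against 17.1% of all tested genes. Groups did not overlap for 17 of the 19, against 47.6% of all tested genes. The number that rose was 8 without wild-type control replicate 3. RLP23 (AT2G32680), the receptor-like protein for nlp peptides of microbes, stood at 1.11, 1.14 and 0.904 CPM in wild type against 52.2, 128 and 154 CPM in med25-1. It rose by 6.73 ± 0.66 (edgeR adjusted p = 7.88e-05). SOBIR1 (AT2G31880), the kinase that receptor-like proteins such as RLP23 signal through, stood at 56.3, 49.9 and 45.4 CPM in wild type against 208, 305 and 253 CPM in med25-1, a rise of 2.34 ± 0.33 (edgeR adjusted p = 0.000862). WAK1 (AT1G21250), a kinase that binds cell wall pectin, had 10.4, 11.5 and 12.3 CPM in wild type and 221, 465 and 203 CPM in med25-1, a rise of 4.70 ± 0.45 (edgeR adjusted p = 6.9e-05). None of these groups came near to overlapping. The helper receptors ADR1 (AT1G33560), ADR1-L1 (AT4G33300) and ADR1-L2 (AT5G04720) rose by 2.26 ± 0.34, 1.64 ± 0.26 and 1.37 ± 0.29, the last not called without wild-type control replicate 3. The flagellin receptor FLS2 (AT5G46330) had 55.1, 63.5 and 52.1 CPM in wild type and 60.2, 60.7 and 56.0 CPM in med25-1, with overlapping groups and a log2 fold change of 0.05 ± 0.19. Its co-receptor BAK1 (AT4G33430) and the chitin receptor CERK1 (AT3G21630) were not called either, at 0.32 ± 0.24 and 0.52 ± 0.19.

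W-box letters, TTGACC or TTGACT on either strand, are those bound by WRKY factors. They were present in 12 of 19 immune receptor promoters (63.2%), in 44.6% of those of genes called higher and in 54.5% of the 233 called higher by at least 16-fold. Promoters of genes called lower held them in 26.5%, those of genes not called in 32.0% and all promoters in 32.7%. The salicylate list held them in 6 of 24 (25%). The RLP23 window (chr2:13862565-13862864, minus strand) is shown with W-box letters in capitals because it holds 2 copies and RLP23 rose the most of the receptors named above.
RLP23: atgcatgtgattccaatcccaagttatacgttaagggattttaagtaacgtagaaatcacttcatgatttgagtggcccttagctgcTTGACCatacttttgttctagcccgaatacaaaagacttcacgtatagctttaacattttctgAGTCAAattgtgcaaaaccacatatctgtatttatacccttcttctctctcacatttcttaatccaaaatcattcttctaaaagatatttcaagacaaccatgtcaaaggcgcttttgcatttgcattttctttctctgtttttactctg

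Beyond the list, whole receptor families were counted by symbol or product in the reference annotation, families that were chosen after values were seen. Of all tested genes 17.1% were called. Of 38 tested receptor-like proteins 21 rose and 2 fell, with a median log2 fold change of 1.79. Of 33 cysteine-rich receptor-like kinases (CRKs) 21 rose and 2 fell, with a median of 0.86. Of 68 TIR-NBS-LRR receptors 29 rose and 0 fell, with a median of 0.63, and the number that rose was 15 without wild-type control replicate 3. Of 35 CC-NBS-LRR and NB-ARC proteins 13 rose and 0 fell, with a median of 0.41 and 6 risen without that library. The medians kept their sign under all alternatives that were run. These families hold close relatives, so that reads fitting more than 1 locus may be missing from some members.

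Single members of these families showed the size of the gap. RLP34 (AT3G11010) stood at 3.49, 4.73 and 3.67 CPM in wild type against 66.05, 157 and 95.5 CPM in med25-1, a rise of 4.75 ± 0.50 (edgeR adjusted p = 0.000117). CRK4 (AT3G45860), already well read in wild type at 33.7, 33.8 and 25.6 CPM, stood at 339.6, 433 and 544 CPM in med25-1, a rise of 3.82 ± 0.41. CRK7 (AT4G23150) went from 0.149, 0.175 and 0.213 CPM to 18.9, 55.0 and 25.1 CPM, a rise of 7.43 ± 0.84. All 3 had every mutant library far above wild type. The members that fell were CRK42 (AT5G40380), by 1.79 ± 0.21, CRK41 (AT4G00970), by 1.09 ± 0.23, and the receptor-like proteins RLP51 (AT4G18760) and RLP44 (AT3G49750). RLP51 fell by 0.93 ± 0.24, but was not called without med25-1 control replicate 3 or wild-type control replicate 1 or 3. RLP44 fell by 1.99 ± 0.62, a call lost under 10 alternatives, and by 1.36 and 2.61 without wild-type control replicate 3 and med25-1 control replicate 2. AT5G63020, a CC-NBS-LRR protein, rose with little spread, from 5.13, 5.17 and 6.64 CPM to 47.2, 48.6 and 50.2 CPM (3.10 ± 0.15, edgeR adjusted p = 2.64e-07).

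Some of these genes are neighbours. Runs of at least 5 adjacent tested genes called in the same direction numbered 11, and all 11 were runs of genes that rose, whereas the longest run of genes that fell had 4. Not all of these runs held receptors: the longest, of 6 genes on chromosome 4, held MIR841b and loci without a symbol. The number of runs was not set against an expected number. On chromosome 4 CRK36, CRK37, CRK38, CRK39 and CRK40 rose together between positions 2231717 and 2292965, with log2 fold changes of 6.02, 8.26, 6.84, 6.12 and 0.60. CRK5, CRK6, CRK7 and CRK8 did so with EP1 between 12117491 and 12136796 of the same chromosome, at 1.82, 4.37, 7.43, 4.75 and 2.06. The share of tested genes called was 15.1% to 18.9% on the 5 chromosomes. The lowest share was that of chromosome 2 and the highest that of chromosome 1.

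**Figure D3:**
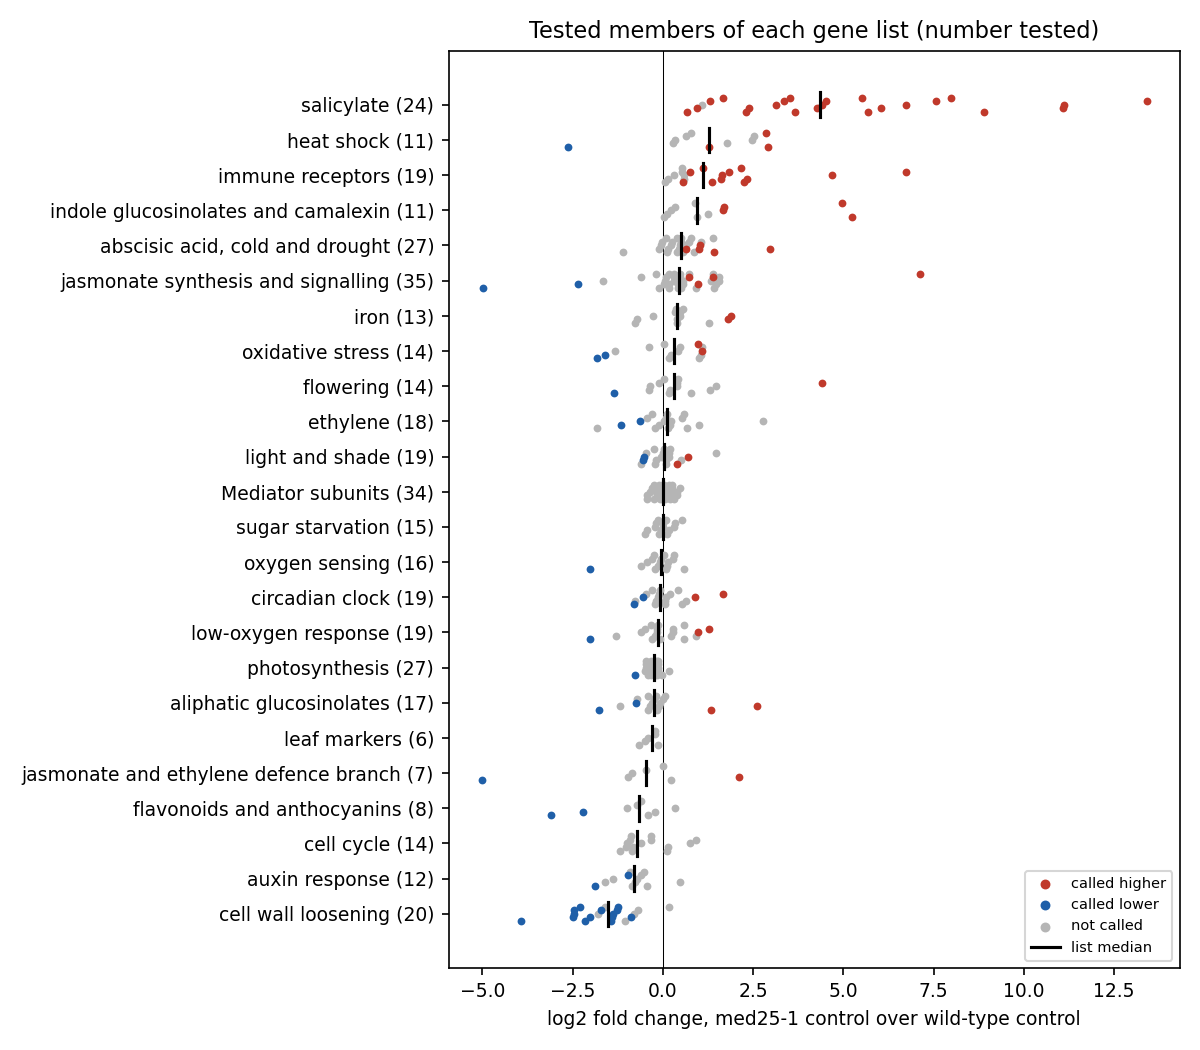
Log2 fold change of med25-1 over wild type under control conditions for each tested member of 24 gene lists with at least 5 tested members, sorted by list median (black bar). The salicylate list has the highest median, 4.34, and the cell wall loosening list the lowest, -1.52.

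The jasmonate pathway, in which MED25 is best known as a coactivator, held called genes at the share of all tested genes. Of 35 tested genes of jasmonate synthesis and signalling 4 rose and 2 fell, which is 17.1% called against 17.1% of all tested genes, while 29 of the 35 had a log2 fold change above 0. The median was 0.45, and groups did not overlap for 12 of the 35, against 47.6% of all tested genes. Without wild-type control replicate 2 or 3 or med25-1 control replicate 3 only 1 gene rose, and the median was 0.06 without the last of these. Among the synthesis genes, AOC3 (AT3G25780), an allene oxide cyclase, and OPCL1 (AT1G20510), a CoA ligase, rose by 1.37 ± 0.42 and 0.96 ± 0.22. Neither was called once wild-type control replicate 2 or 3 or med25-1 control replicate 3 was left out, and AOC3 also without wild-type control replicate 1, med25-1 control replicate 2 or any wild-type hypoxia replicate. The 13-lipoxygenase LOX2 (AT3G45140) stood at 720.5, 198 and 224 CPM in wild type against 644, 490.1 and 2218 CPM in med25-1, and its overlapping groups gave no call (1.55 ± 0.58, edgeR adjusted p = 0.0869). The 29 members not called had log2 fold changes from -1.67 to 1.56. MYC2 (AT1G32640), the pathway's main activator, was listed with 0 reads in every control library, so that no level can be given. Its relatives MYC3 (AT5G46760) and MYC4 (AT4G17880) missed the threshold at 0.46 ± 0.15 (edgeR adjusted p = 0.0501) and 0.04 ± 0.17. JAM1 (AT2G46510), a repressor that competes with MYC2, rose by 0.71 ± 0.20, but was not called without wild-type control replicate 2 or 3 or med25-1 control replicate 3.

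Jasmonate-responsive genes went both ways. TAT3 (AT2G24850), a tyrosine aminotransferase, stood at 0.520, 0 and 1.49 CPM in wild type against 53.3, 121 and 151 CPM in med25-1. It rose by 7.14 ± 0.85 (edgeR adjusted p = 0.000261), or 8.56 without wild-type control replicate 3. VSP2 (AT5G24770), a vegetative storage protein and marker of the wound response, stood at 52.2, 36.8 and 63.3 CPM in wild type against 14.8, 4.62 and 10.3 CPM in med25-1, and fell by 2.35 ± 0.48 (edgeR adjusted p = 0.00695). CYP94B3 (AT3G48520), which inactivates jasmonoyl-isoleucine, had 12.7, 2.89 and 1.70 CPM in wild type and 0.0578, 0.136 and 0.300 CPM in med25-1, and fell by 4.998 ± 0.90 (edgeR adjusted p = 0.00551). Without wild-type control replicate 1 CYP94B3 fell by 3.66, and without med25-1 control replicate 3 its ratio of wild type to med25-1 was 57.6. The groups did not overlap for any of these 3 genes, while VSP1 (AT5G24780), the closest relative of VSP2, had overlapping groups and a log2 fold change of -0.12 ± 0.64.

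In the branch that jasmonate and ethylene control together, 7 of 13 genes were read well enough to test. ERF2 (AT5G47220), an ethylene response factor, stood at 10.4, 7.27 and 6.01 CPM in wild type against 25.4, 31.0 and 45.6 CPM in med25-1, a rise of 2.11 ± 0.30 (edgeR adjusted p = 0.000888). The defensin PDF1.2A (AT5G44420) had 0.223, 0.0876 and 0.425 CPM in wild type, and 0 reads in med25-1, at least 4.76-fold lower, and 2.79-fold without wild-type control replicate 3. It was called lower (edgeR adjusted p = 0.0219), but not without that library (adjusted p = 0.0831) or without med25-1 control replicate 3. The factor ORA59 (AT1G06160), which activates PDF1.2A, was not called, at 5.05, 3.24 and 2.66 CPM in wild type and 1.68, 1.02 and 3.20 CPM in med25-1. Its log2 fold change was -0.86 ± 0.53 (edgeR adjusted p = 0.293). The PDF1.2A window (chr5:17907589-17907888, minus strand) is shown because it holds the letters that ORA59 and ERF1 bind, a GCC-box (GCCGCC, in capitals), which 2.68% of all promoters held.
PDF1.2A: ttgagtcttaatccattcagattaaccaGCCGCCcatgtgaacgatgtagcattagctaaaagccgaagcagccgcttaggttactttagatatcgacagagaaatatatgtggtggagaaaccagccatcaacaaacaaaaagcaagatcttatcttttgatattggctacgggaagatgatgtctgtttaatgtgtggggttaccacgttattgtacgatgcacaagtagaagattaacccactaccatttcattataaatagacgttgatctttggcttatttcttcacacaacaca

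Enzymes of indole-derived defence compounds rose in part. Of 11 tested genes of indole glucosinolates and camalexin 4 rose and 0 fell (36.4% called, against 17.1% of all tested genes). Their median log2 fold change was 0.95, and 2 rose without wild-type control replicate 3. CYP83B1 (AT4G31500), an oxime-metabolizing enzyme of indole glucosinolates, stood at 116, 100.4 and 93.7 CPM in wild type against 247, 448 and 304 CPM in med25-1, a rise of 1.69 ± 0.33 (edgeR adjusted p = 0.00617). PAD3 (AT3G26830), which makes camalexin, the main phytoalexin of Arabidopsis, had 0.0743, 0.263 and 3.88 CPM in wild type and 20.5, 110.2 and 20.7 CPM in med25-1. PAD3 rose by 4.96 ± 1.06 (edgeR adjusted p = 0.0092), by 8.21 without wild-type control replicate 3 and by 3.68 without med25-1 control replicate 2. The regulator MYB51 (AT1G18570) rose by 1.67 ± 0.37, but was not called without wild-type control replicate 3. CYP71A13 (AT2G30770), the step that commits to camalexin, had 3 reads over the wild-type group and a ratio of 40.9 (95% counting interval 13.7 to 201). That call was lost without any 1 wild-type control replicate or med25-1 control replicate 2, and the ratio was 69.8 without wild-type control replicate 3.

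The clearest fall among the lists was in enzymes that loosen the cell wall during growth. Of 20 tested expansins and xyloglucan endotransglucosylase/hydrolases (XTHs) 14 fell and 0 rose, with a median log2 fold change of -1.52. The share called was 70%, against 17.1% of all tested genes. Groups did not overlap for 16 of the 20, against 47.6% of all tested genes. The number that fell was 7 without med25-1 control replicate 2 and 9 without med25-1 control replicate 3, wild-type control replicate 1 or wild-type control replicate 3. XTH15 (AT4G14130) stood at 18.1, 6.57 and 5.16 CPM in wild type against 0.925, 0.544 and 0.450 CPM in med25-1. It fell by 3.94 ± 0.56 (edgeR adjusted p = 0.000886), and fell by 3.18 without wild-type control replicate 1. EXPA1 (AT1G69530), the most read expansin of leaves here, stood at 174, 220.4 and 235 CPM in wild type against 83.6, 69.1 and 37.6 CPM in med25-1, and fell by 1.73 ± 0.33 (edgeR adjusted p = 0.00505). The mutant libraries of both genes all lay under the wild-type ones. EXPA10 (AT1G26770) fell by 2.01 ± 0.35, XTH16 (AT3G23730) by 2.47 ± 0.47, EXPA3 (AT2G37640) by 2.17 ± 0.42 and XTH8 (AT1G11545) by 2.50 ± 0.53. EXPA8 (AT2G40610) fell by 2.47 ± 0.51, and by 3.11 without med25-1 control replicate 1. XTH22 (AT5G57560), also known as TCH4 and induced by touch, overlapped between groups and was not called, at -0.81 ± 0.38, and neither was XTH24 (AT4G30270), at 0.17 ± 0.51.

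**Figure D4:**
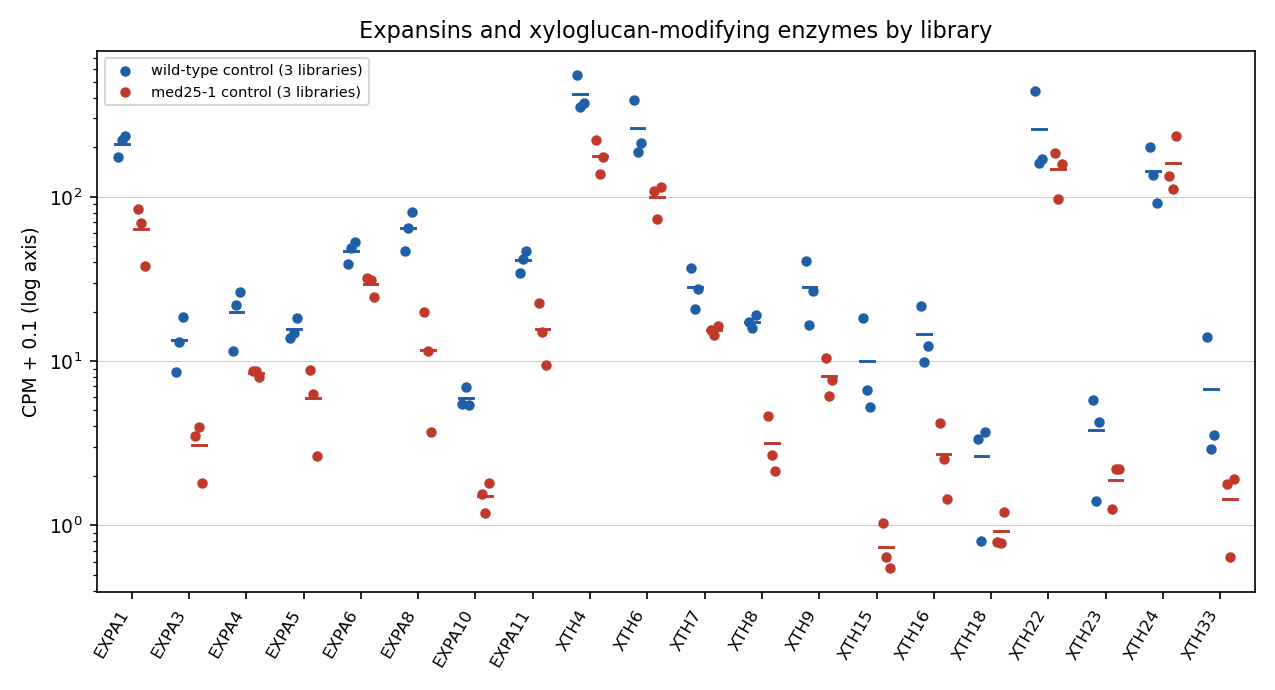
CPM plus 0.1 (log axis) of the 20 tested expansins and XTHs in the 3 wild-type control libraries (blue) and the 3 med25-1 control libraries (red), with a bar at each mean. The mutant libraries lie lower for 16 of the 20 without overlap, and XTH22 and XTH24 are among the rest, which overlap.

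Proteins of the same wall were lower too, in families chosen after values were seen. Of 12 tested fasciclin-like arabinogalactan proteins 8 fell and 0 rose (median log2 fold change -1.54), and of 23 arabinogalactan proteins 12 fell and 0 rose (median -1.43), with 8 fallen without med25-1 control replicate 3 or wild-type control replicate 2 or 3. FLA8 (AT2G45470) stood at 46.9, 54.8 and 72.1 CPM in wild type against 19.0, 16.6 and 13.4 CPM in med25-1, a fall by 1.83 ± 0.28 (edgeR adjusted p = 0.0013). AGP18 (AT4G37450), a lysine-rich arabinogalactan protein, stood at 6.39, 7.97 and 7.76 CPM in wild type against 1.21, 0.951 and 1.05 CPM in med25-1, a fall by 2.77 ± 0.29 (edgeR adjusted p = 0.000131). Among 22 aquaporins, the water channels, 4 fell and 0 rose, a share near the 17.1% called over all tested genes, with a median of -0.49. Without med25-1 hypoxia replicate 3, 8 aquaporins fell and 1 rose. The plasma membrane aquaporin PIP2A (AT3G53420), at 979.5, 874 and 942 CPM in wild type, stood at 463, 380.4 and 507 CPM in med25-1 and fell by 1.05 ± 0.15 (edgeR adjusted p = 0.00091). The groups of these 3 genes did not overlap.

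Auxin-responsive genes had a negative median of -0.81 over 12 tested genes. Of these 2 were called, both lower, a share of 16.7% near the 17.1% of all tested genes. IAA17 (AT1G04250), an auxin repressor, stood at 10.5, 7.18 and 8.29 CPM in wild type against 2.31, 1.70 and 3.00 CPM in med25-1 and fell by 1.87 ± 0.24 (edgeR adjusted p = 0.000435). IAA7 (AT3G23050) fell by 0.97 ± 0.29, a call lost when any 1 wild-type library, mutant control library 2 or 3 or mutant hypoxia library 2 was left out. Cell cycle genes had 0 of 14 called by edgeR (4 at an unadjusted p under 0.05, 1 called by DESeq2 and 7 by voom) with a median of -0.72. Photosynthesis genes counted 1 lower of 27 (3.7%) with a median of -0.24. Only 1 of the 27 had a log2 fold change above 0. Groups did not overlap for 20 of the 27, against 47.6% of all tested genes. Without med25-1 hypoxia replicate 3, 7 photosynthesis genes and 7 of the 12 auxin genes were called lower. With all libraries the photosynthesis gene called lower was PSBS (AT1G44575), needed for energy-dependent quenching. PSBS fell by 0.79 ± 0.20, but was not called without wild-type control replicate 2 or 3 or med25-1 control replicate 1 or 3.

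Flavonoid synthesis was read at low levels, and 8 of 21 genes were tested. CHS (AT5G13930), chalcone synthase, the entry enzyme, stood at 10.6, 9.63 and 10.7 CPM in wild type against 0.693, 1.56 and 1.35 CPM in med25-1. CHS fell by 3.10 ± 0.33 (edgeR adjusted p = 0.000131), and all mutant libraries lay far below wild type. AT4G14090, a glycosyltransferase of anthocyanins, fell by 2.22 ± 0.51, but was not called without wild-type control replicate 1. The other 6 tested genes were not called, so that the share called was 25%, against 17.1% of all tested genes. The median over the 8 was -0.66.

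Flowering and light responses are the fields in which MED25 is known as PFT1. Flowering, light and clock genes were called at shares near the 17.1% of all tested genes: 14.3% of flowering genes and 21.1% each of light and clock genes. Of 14 tested flowering genes 1 rose and 1 fell. MAF4 (AT5G65070), a relative of the floral repressor FLC, stood at 0.297, 0.350 and 0.106 CPM in wild type against 5.03, 5.84 and 4.603 CPM in med25-1, a rise of 4.41 ± 0.35 (edgeR adjusted p = 2.00e-05). Its neighbour MAF5 (AT5G65080) was not called, at 1.46 ± 0.52, nor was FLC (AT5G10140), at 1.31 ± 0.58 (edgeR adjusted p = 0.144). AGL24 (AT4G24540), a floral promoter, fell by 1.37 ± 0.38, but was not called without wild-type control replicate 2 or 3 or med25-1 control replicate 2 or 3, and FT (AT1G65480), the florigen, was unread in all 6 control libraries. Of 19 clock genes 2 rose and 2 fell. PRR9 (AT2G46790), a morning repressor, stood at 4.09, 5.08 and 4.25 CPM in wild type against 11.0, 12.8 and 18.6 CPM in med25-1, a rise of 1.66 ± 0.24 (edgeR adjusted p = 0.000877). RVE8 (AT3G09600), a clock activator, rose by 0.90 ± 0.15. Of 19 light and shade genes 2 rose and 2 fell, and PHYB (AT2G18790), the red-light receptor, rose by 0.40 ± 0.12, a call lost with upper-quartile scaling, with no filter on low counts, without any 1 control library and without wild-type hypoxia replicate 3.

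Abscisic acid, cold and drought genes counted 5 higher and 0 lower of 27, a called share of 18.5% against 17.1% of all tested genes. Their median log2 fold change was 0.49, but only 1 rose without wild-type control replicate 1 or 3 or med25-1 control replicate 3. CBF3 (AT4G25480), an activator of cold-response genes, stood at 1.11, 1.05 and 1.28 CPM in wild type against 2.54, 3.53 and 3.25 CPM in med25-1, a rise of 1.42 ± 0.26 (edgeR adjusted p = 0.00447). Of 11 tested heat shock genes 3 rose and 1 fell (36.4% called, against 17.1% of all tested genes). HSFB1 (AT4G36990), a heat shock factor also active in immunity, stood at 6.17, 6.22 and 5.90 CPM in wild type against 30.5, 54.0 and 47.3 CPM in med25-1, a rise of 2.85 ± 0.47 (edgeR adjusted p = 0.00215). HSP90.1 (AT5G52640) rose by 2.92 ± 0.86, a value that rested on the 67.2 CPM of med25-1 control replicate 2. Without that library it was 1.13 with an edgeR adjusted p of 0.246, and the call was also lost without any 1 wild-type control replicate, without wild-type hypoxia replicate 3 and with the replicate block. Ethylene genes counted 2 lower of 18, a share of 11.1% that lay below the 17.1% of all tested genes. The ethylene receptor ETR2 (AT3G23150) fell by 1.17 ± 0.21 from 6.17, 4.82 and 4.62 CPM to 2.37, 2.11 and 2.40 CPM (edgeR adjusted p = 0.00337).

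Low-oxygen genes are the subject of the series. Before any treatment, 2 of 19 tested were higher and 1 lower (15.8%, against 17.1% of all tested genes), with a median log2 fold change of -0.13. ALAAT1 (AT1G17290), alanine aminotransferase, stood at 148, 121 and 123 CPM in wild type against 263, 320.2 and 369 CPM in med25-1, a rise of 1.28 ± 0.23 (edgeR adjusted p = 0.0039). RBOHD (AT5G47910), the NADPH oxidase of immune and stress signalling, rose by 0.98 ± 0.27, but was not called without any 1 wild-type control replicate or med25-1 control replicate 2 or 3. PCO1 (AT5G15120), an oxygen-sensing cysteine oxidase, fell by 2.01 ± 0.48 at levels under 0.5 CPM, but was not called without med25-1 control replicate 2 or 3. Without replicate 1 its ratio of wild type to med25-1 was 7.15. ADH1 (AT1G77120), alcohol dehydrogenase, had 2.23, 2.28 and 4.09 CPM in wild type and 3.35, 2.58 and 4.30 CPM in med25-1, and its groups overlapped (0.23 ± 0.35, edgeR adjusted p = 0.685).

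Genes with the largest changes were mostly outside these lists. AT3G01345, an uncharacterized protein, stood at 111, 132 and 123 CPM in wild type against 0.116, 0.0680 and 0.05003 CPM in med25-1, a fall by 10.48 ± 0.30 (edgeR adjusted p = 2.67e-09). AT3G28320, also uncharacterized, had 64.9, 46.1 and 51.2 CPM in wild type and 3 reads over the med25-1 group, a ratio of wild type to med25-1 of 938 (95% counting interval 321 to 4551), or 2018 without med25-1 control replicate 2. QQS (AT3G30720), an Arabidopsis-specific gene that affects starch, did the reverse, with 3 reads over the wild-type group and 114, 88.5 and 98.5 CPM in med25-1, a ratio of 1467 with an interval of 502 to 7117 (edgeR adjusted p = 4.38e-08). All 3 had tight groups that lay far apart. DR4 (AT1G73330), a protease inhibitor repressed by drought, fell by 6.39 ± 0.44, and GER3 (AT5G20630), a germin-like protein, fell by 4.94 ± 0.97. Without med25-1 control replicate 3 or 2 GER3 fell by 4.33 or fell by 5.92. AT1G12010, of the 2-oxoglutarate and iron dependent oxygenase superfamily, had 0 reads in wild type and 16.4, 13.7 and 29.1 CPM in med25-1, at least 299-fold higher. AT1G11280, an S-locus lectin kinase, had 0 reads in wild type and 20.5, 16.3 and 13.8 CPM in med25-1, at least 243-fold higher.

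Such genes, read in one genotype only, were counted. With a mean of at least 20 reads in the other genotype, 42 genes had 0 reads in all wild-type control libraries and 4 had 0 reads in all med25-1 control libraries. Of the 42, 40 were called higher, and in wild-type plants under hypoxia 18 were again unread and 32 had at most 3 reads in all. The 4 unread in med25-1 were AT1G74130, AT2G13660, AT1G11370 and GRP9 (AT2G05440), at least 42.9, 37.7, 34.5 and 32.1-fold lower. Each of the 4 had at most 3 reads in med25-1 under hypoxia. The labels do not name the background of the lines. An effect of the med25-1 lesion and a difference in genetic background thus cannot be told apart, for these genes or any others called here.

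The difference between genotypes under hypoxia ran along with that under control conditions. It was measured in other libraries, which shared with the control libraries only the gene filter, the scaling and the estimate of spread. Of the 3115 genes called under control conditions 2085 were also called under hypoxia in the same direction, which is 66.9% of the control calls and 53.0% of the 3933 hypoxia calls (21.6% of tested genes, 12% higher and 9.62% lower), and 1 was called in the opposite direction. The sign was the same for 3051 of the 3115 (97.9%). The correlation of log2 fold changes across genes was 0.944 over the 3115 and 0.889 over all 18212 tested genes, where genes are not independent replicates. Of the salicylate list 24 of 24 rose under hypoxia as well, with a median of 4.52, and of the immune receptors 13 of 19, with a median of 1.26. Cell wall loosening genes counted 7 lower of 20 under hypoxia with a median of -1.13, against 14 under control conditions.

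**Figure D5:**
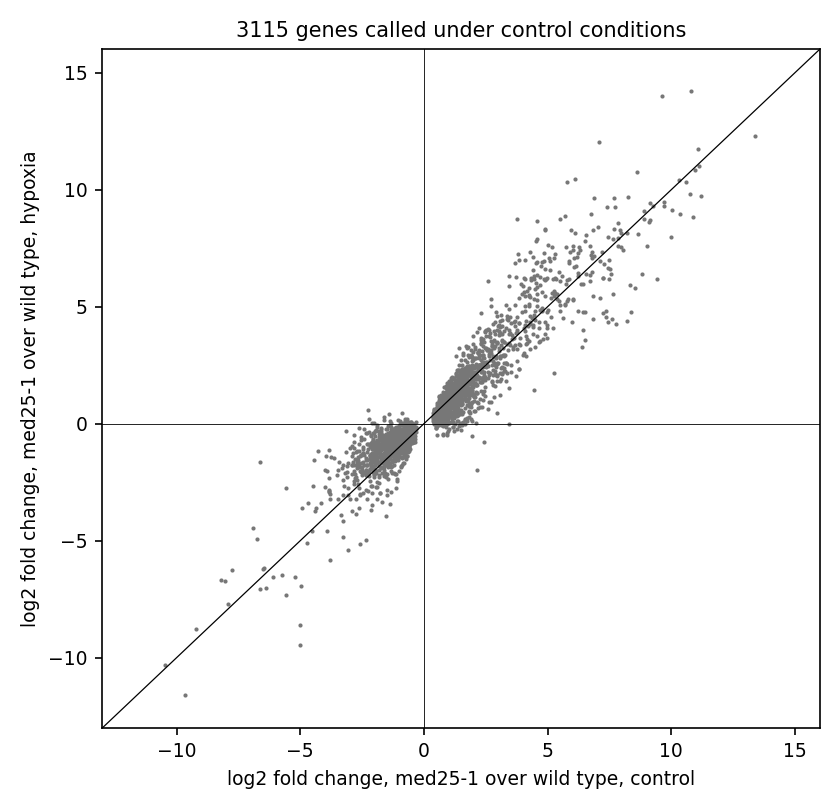
Log2 fold change of med25-1 over wild type under hypoxia against that under control conditions for the 3115 genes called under control conditions, 1 point per gene, with the line of equality. Most points follow the line, with a correlation of 0.944 across genes, and 3051 share the sign.

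The test of the difference between the 2 conditions called 0 genes by edgeR, with 910 at an unadjusted p under 0.05, a smallest adjusted p of 0.155 and 16 called by DESeq2. By edgeR no gene was thus called particular to control conditions, and the DESeq2 calls are not followed further here. The genes called under control conditions with the smallest p in that test were AT5G41900 and AT1G73480, both of the alpha/beta-hydrolase superfamily, AT1G78070, a WD40-repeat protein, and ERF2. AT5G41900 fell by 2.36 ± 0.24 under control conditions and by 4.96 ± 0.25 under hypoxia, a difference of -2.60 ± 0.35 (edgeR adjusted p = 0.155). AT1G73480 stood at 19.5, 27.0 and 23.9 CPM in wild type against 84.4, 116 and 157 CPM in med25-1, a rise of 2.35 ± 0.23 under control conditions, against 0.71 ± 0.22 under hypoxia. ERF2 had 2.11 ± 0.30 under control conditions and 0.03 ± 0.29 under hypoxia, a difference of -2.09 ± 0.41 (edgeR adjusted p = 0.845). ORA59, named here after its values were seen, had -0.86 under control conditions and -4.10 under hypoxia. It was not called by edgeR in the test of that difference.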

How the data were processed

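Reads of 12 rosette libraries were analysed from a deposited table of 33208 features. Per the file headers it gives, for each library, counts of uniquely placed gene reads, total gene reads, exon reads and intron reads. The authors also deposited RPKM values, used here only to compare levels between genes. Their own comparison holds, per the file headers, a score (a signed fold change) and p-values with FDR correction, and served only to be set beside the calls. In the authors' deposited table, 6480 of the genes tested here passed an FDR of 0.05, and 2710 of these were called here with the same sign (41.8% of theirs, 87.0% of the calls here). On the salicylate list, ICS1, EDS5, PBS3, PAD4, EDS1, NPR1, PR2, SARD1, WRKY70, WRKY54, WRKY38, NIMIN1, FMO1, ALD1 and NUDT6 did not pass there. The rest of that list passed, WRKY18 among them. Another 116 columns of sample values were not used. The submitters' processing notes name TAIR10 as the build, and 32908 of 32909 matched features had the same start and end in the TAIR10.1 reference. Libraries came from a stranded mRNA kit, per the labels' protocols, but the aligner, counter and counting strand were not given in the sources used here. Values of antisense, overlapping and near-identical genes are therefore uncertain.

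Groups came from titles and treatment labels. The deposited counts of uniquely placed gene reads entered the quasi-likelihood test of edgeR 4.0.16 (R 4.3.3). filterByExpr left 18212 genes, TMM scaled the libraries, and glmQLFit took all 12 libraries with 1 mean per group (common dispersion 0.0436). Tests were two-sided, p-values were adjusted by Benjamini-Hochberg over all tested genes, and the procedure was tested on simulated data. There it recovered 50% of the 2-fold changes put in and 87.9% of the 4-fold changes, with 10 false calls. Standard errors are approximate, being derived from the fold change and its F statistic. Depth was 11360247 to 20501572 reads in the control libraries. A group with 0 reads of a gene was set at 3 counts for a bound, and a group with 1 to 3 counts got a ratio with a 95% interval. Such bounds and intervals cover counting error only. In each group the replicates varied beyond sampling noise (chi-square over its degrees of freedom, 4.17 to 81.9).

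Members, gene lists, families and tests were chosen with earlier results of these data known. The naming rule took the 12 largest changes in each direction (called, no overlap, at least 50 counts on average in the higher group), MED25, up to 4 members of each list by smallest p among those called (1 where none was), up to 8 genes per direction unread in 1 genotype, and 4 genes by the interaction test. The lists of salicylate, immune receptors, cell wall loosening, jasmonate and indole compounds were drawn on more fully. Families, and members beyond the rule, were named after their values were seen. Alternatives were other scalings and filters, DESeq2 1.42.0, voom of limma 3.58.1, exon or total reads, the control libraries alone, a replicate block and leaving out each library.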

Additional observations from a re-analysis of the deposited data

How the results depend on the processing

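Against 3115 genes called, 1635 higher and 1480 lower, limma's voom called 6774 (3269 and 3505), the 6 control libraries alone 5177 (2562 and 2615), a required change of at least 2-fold 1795 (1071 and 724) and an adjusted p under 0.01 1098 (688 and 410). Leaving out 1 library gave 1285 to 5027 calls, 768 to 2540 higher and 517 to 2487 lower, and the hypoxia count of 3933 ran from 2214 to 5124. With RLE size factors, upper-quartile scaling, no filter, a CPM filter, exon or total reads the count was 3031 to 3140, and DESeq2 called 3907. Higher calls made up 52.5%, but 49.6% with upper-quartile scaling, 62.8% without med25-1 control replicate 3 and 59.8% and 59.5% without wild-type control replicate 3 and med25-1 control replicate 1. The interaction test called 16 genes with DESeq2 and 0 in the main test. Cell wall loosening genes called lower numbered 7 to 15 when 1 library was left out. The replicate numbers are not known to pair samples: deviations of same-numbered libraries of the 2 genotypes correlated at -0.01, 0.09 and -0.28, and with a replicate block 3079 genes were called, 2836 of them shared. No named gene changed direction, and 50 of 129 named called genes were lost under at least 1 alternative. The cause of these shifts was not tested. Genes with few reads, such as the PDF1.2 and flavonoid genes, are limited by depth.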

Other observations

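In further gene families, chosen after values were seen, some members rose in med25-1 under control conditions, and 17.1% of all tested genes were called. Of 48 tested WRKY factors 19 rose and 1 fell, with a median log2 fold change of 0.72, and the number that rose was 13 without wild-type control replicate 2. WRKY51 (AT5G64810) stood at 0, 0.0876 and 0.0532 CPM in wild type against 9.19, 30.0 and 4.55 CPM in med25-1, a rise of 8.06 ± 1.19, or 6.98 without med25-1 control replicate 2. WRKY58 (AT3G01080) stood at 0.966, 0.876 and 0.266 CPM in wild type against 7.22, 7.88 and 5.20 CPM in med25-1, a rise of 3.33 ± 0.38. The one that fell was WRKY42 (AT4G04450), by 1.28 ± 0.32, but was not called without wild-type control replicate 2 or 3 or any 1 med25-1 control replicate. Of 45 NAC factors, plant-specific regulators of senescence and stress, 13 rose and 1 fell, with a median of 0.45 and 8 risen without any 1 wild-type control replicate. NAC036 (AT2G17040) stood at 9.88, 11.5 and 11.96 CPM in wild type against 65.3, 80.1 and 104 CPM in med25-1, a rise of 2.90 ± 0.27 (edgeR adjusted p = 6.38e-05). The NAC factor that fell was NAC041 (AT2G33480), by 0.57 ± 0.17, but was not called once any 1 control library, or replicate 3 of wild-type hypoxia, was left out.

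Of 7 tested wall-associated kinases 6 rose and 0 fell, with a median of 1.61 and 4 risen without wild-type control replicate 2 or 3 or med25-1 control replicate 3. WAK3 (AT1G21240), next to WAK1, went from 0.223, 0.0876 and 0.266 CPM to 16.9, 38.7 and 15.5 CPM, a rise of 6.79 ± 0.81 (edgeR adjusted p = 0.000274). Of 18 tau-class glutathione transferases, detoxifying enzymes, 7 rose and 0 fell, with a median of 0.37 and 3 risen without wild-type control replicate 2 or 3 or med25-1 control replicate 2. Of 7 calmodulin-like genes 3 rose, with 2 risen without any 1 wild-type control replicate, med25-1 control replicate 1 or 2 or replicate 2 of wild-type hypoxia. CML41 (AT3G50770), a calcium sensor, stood at 1.71, 1.49 and 1.44 CPM in wild type against 64.7, 33.8 and 251 CPM in med25-1, a rise of 6.24 ± 0.90. Like PR2 and PR5, CML41 was highest in med25-1 control replicate 3.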
